A study of Mus musculus with 7 samples.

Results

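The genes described are 10 components of the TGF-beta pathway: the ligand gene Tgfb1, the receptor genes Tgfbr1, Tgfbr2 and Tgfbr3, the SMAD genes Smad2, Smad3, Smad4 and Smad7, and the repressor genes Ski and Skil. They were taken by name from a deposited table of 54532 genes, and each matched 1 entry. The RNA came from spleen cells of IL-17GFP/+ transgenic mice, in which green fluorescent protein reports the IL-17 locus, sorted for that protein by flow cytometry and labelled as Th17 cells. Mice of the periodontitis group had silk ligatures around the first molars of the lower jaw on each side, and mice of the health group had none. The health group had 4 libraries (1 to 4) and the periodontitis group 3, which carry the numbers 2 to 4 in their library names. The labels give neither the age of the mice nor whether libraries came from separate animals, so the spread behind every p-value is that between these libraries, which may be technical.

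TGF-beta is secreted in a latent form and, once released, binds the type II receptor, which phosphorylates the type I receptor. The type I receptor phosphorylates SMAD2 and SMAD3, which join SMAD4 and enter the nucleus to regulate target genes. SMAD7, SKI and SKIL (SnoN) restrain the signal. In mouse T cells TGF-beta together with IL-6 starts the Th17 program, and TGF-beta also supports regulatory T cells and limits effector responses.

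Each library held 13513806 to 17891393 reads, as recovered from the deposited FPKM (by name, fragments per kilobase of gene per 1000000 fragments). Il17a stood at 0 to 3.76 FPKM in health and at 136 to 362 FPKM in periodontitis, so the health libraries hold little RNA of the cytokine whose reporter was sorted. The summed FPKM of 4 T cell markers, the CD3 subunit genes, was 32.9 to 94.1 in health and 306 to 752 in periodontitis, and all 4 were called higher. The summed FPKM of 10 macrophage markers was 3944 to 11515 in health and 335 to 806 in periodontitis, and all 10 were called lower. The summed FPKM of 4 gamma-delta T cell markers was 7.59 to 26.7 in health and 433 to 558 in periodontitis, and all 4 were called higher. Cd4, the co-receptor of the labelled T helper cells, was present at 26.6 to 28.8 FPKM in health and 104 to 137 in periodontitis. No marker of these lists was at 0 in every library. Xist was 52.1 to 72.5 FPKM in health and at most 1.35 in periodontitis, while Ddx3y, Uty, Kdm5d and Eif2s3y, genes of the Y chromosome, had no read in health and were present in each periodontitis library. Sex and periodontitis cannot be told apart for the genes below, and the part of the cell types in each difference was not tested. In bulk RNA fewer cells of a type and less RNA per cell cannot be told apart.

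Of the 10 genes, Tgfbr3 and Smad3 were higher in periodontitis, Tgfbr1 was lower, and 7 did not pass the test. The test was limma on log2(FPKM + 1) over the 12999 genes whose mean reached 1 FPKM, two-sided, with Benjamini-Hochberg adjustment and a threshold of 0.05. Among all genes tested 5.63% were called higher and 10.2% lower, or 15.8% in either direction, against 3 of these 10. The library values of the groups did not overlap for 4 of the 10, where this was so for 29.8% of genes tested. The median log2 fold change was -0.37 over the 10 genes and -0.06 over all genes tested. Fold changes on this scale understate the change of low genes. All 10 passed the filter on low values, with 96 to 9934 reads per gene and library.

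**Figure D1:**
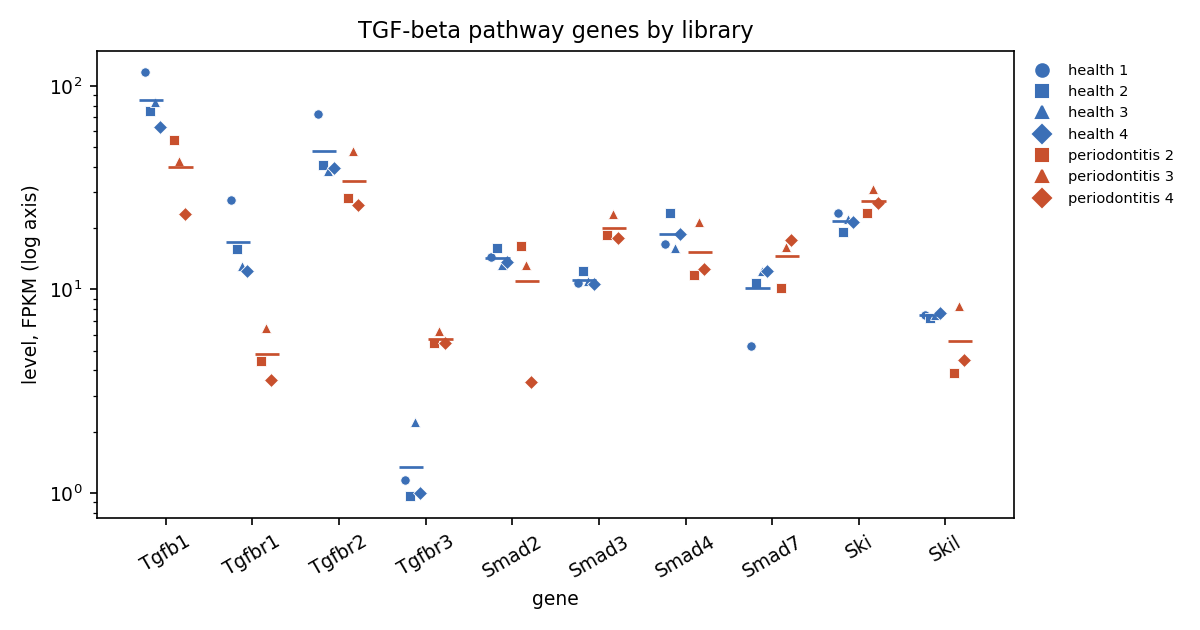
Level of each of the 10 genes in FPKM (log axis) in the 4 health (blue) and 3 periodontitis (orange) libraries, with 1 symbol per library number and bars at the group means. The groups do not overlap for Tgfb1, Tgfbr1, Tgfbr3 and Smad3, and Smad2 falls to 3.52 FPKM in periodontitis 4.

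Tgfb1 encodes the ligand TGF-beta1 and had the highest mean of the 10 in each group, though in periodontitis it was above Tgfbr2 in 1 of 3 libraries, periodontitis 2. In the mm10 build it occupies bases 25687002 to 25705077 of chromosome 7 (plus strand). Health libraries 1 to 4 read 117, 75.5, 83.9 and 63.0 FPKM, and periodontitis libraries 2 to 4 read 54.0, 42.9 and 23.6 FPKM. All periodontitis libraries lay below all health libraries, and health 1 was the highest library while periodontitis 4 was the lowest. The group means were 84.9 ± 23.2 FPKM (SD, n = 4) and 40.2 ± 15.4 FPKM (SD, n = 3). The log2 fold change of -1.10 (SE 0.33, 95% interval -1.85 to -0.35) did not pass the threshold (limma adjusted p = 0.0561). It passed in 5 of 16 alternatives, among them without periodontitis 2 (adjusted p = 0.0385). Over the 16, limma adjusted p ran from 0.00971 to 0.132. The highest was without periodontitis 4, where the log2 value was -0.77.

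Tgfbr1, the type I receptor that phosphorylates SMAD2 and SMAD3, fell in periodontitis. It occupies bases 47353222 to 47414931 of chromosome 4 (plus strand). Its FPKM in the health libraries, in order of number, was 27.5, 15.7, 13.1 and 12.3, and in the periodontitis libraries 4.44, 6.49 and 3.57. The groups did not overlap, and the mean in health, 17.2 ± 7.03 FPKM (SD, n = 4), was 3.55-fold that in periodontitis, 4.83 ± 1.499 FPKM (SD, n = 3). Its log2 change was -1.60 (SE 0.31, 95% interval -2.31 to -0.89; limma adjusted p = 0.0102), and it passed in all 16 alternatives.

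Tgfbr2, the type II receptor that binds the ligand, is on chromosome 9 (116084293 to 116175360, minus strand) and had the second highest mean of the 10 in each group. Health libraries 1 to 4 had 73.1, 40.7, 38.0 and 39.4 FPKM, while periodontitis libraries 2 to 4 had 28.0, 48.0 and 26.0 FPKM. Periodontitis 3 lay above 3 of the 4 health libraries, so the groups overlapped, and health 1 stood apart from the other health libraries. The log2 value of -0.48 (95% interval -1.19 to 0.24) did not pass (limma adjusted p = 0.341).

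Tgfbr3 encodes betaglycan, a co-receptor that presents TGF-beta to the type II receptor and whose shed form can bind the ligand away from it. It occupies bases 107106570 to 107289629 of chromosome 5 (minus strand). The health libraries, in order of number, read 1.15, 0.962, 2.23 and 0.9995 FPKM, and the periodontitis libraries 5.47, 6.24 and 5.43 FPKM, or 558 reads over the health libraries and 1723 over the periodontitis libraries. Every periodontitis library was above every health library, and within periodontitis the highest was 1.15-fold the lowest. The mean was 4.28-fold higher in periodontitis, with 1.33 ± 0.600 FPKM (SD, n = 4) and 5.71 ± 0.458 FPKM (SD, n = 3). Its log2 change was 1.55 (SE 0.27, 95% interval 0.94 to 2.17; limma adjusted p = 0.00588). It passed in 15 of 16 alternatives and was lost with a replicate block (adjusted p = 0.0553). On the recovered reads (limma voom) it was 2.20. Betaglycan was the only member whose span held other entries of the table: 3 unconfirmed transcripts on the same strand, of which the highest, Gm42900, had at most 73 reads in a library, and 1 pseudogene with none.

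The start regions of Tgfb1, Tgfbr1 and Smad3 are shown because these are the members with non-overlapping groups for which RefSeq (GRCm38.p6) gave an entry. Entries were found for 5 of the 10 genes, and none was found for Tgfbr3. Tgfbr1 had a second entry, and the one shown is that at the start site of the deposited table. Each run is the 250 bases before the start site, written 5′ to 3′ on the gene's own strand, and capitals mark GC boxes, the letters GGGCGG or their reverse complement CCGCCC.
Tgfb1, chr7:25686752-25687001, plus strand: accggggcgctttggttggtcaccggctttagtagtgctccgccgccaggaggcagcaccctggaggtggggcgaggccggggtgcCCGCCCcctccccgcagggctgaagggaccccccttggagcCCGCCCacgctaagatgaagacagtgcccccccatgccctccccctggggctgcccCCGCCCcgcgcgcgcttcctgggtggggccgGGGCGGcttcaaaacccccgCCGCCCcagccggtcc
Tgfbr1, chr4:47352972-47353221, plus strand: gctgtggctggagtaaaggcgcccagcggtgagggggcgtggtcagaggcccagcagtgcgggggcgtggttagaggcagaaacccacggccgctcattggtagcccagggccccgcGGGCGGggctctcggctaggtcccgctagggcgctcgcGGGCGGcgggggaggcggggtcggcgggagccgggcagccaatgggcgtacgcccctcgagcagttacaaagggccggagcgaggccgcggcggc
Smad3, chr9:63757995-63758244, minus strand: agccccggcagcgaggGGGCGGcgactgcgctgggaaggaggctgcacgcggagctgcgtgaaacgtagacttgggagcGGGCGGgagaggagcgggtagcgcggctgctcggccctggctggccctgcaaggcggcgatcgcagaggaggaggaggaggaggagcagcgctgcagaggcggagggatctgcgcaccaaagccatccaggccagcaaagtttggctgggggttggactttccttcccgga

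These windows are rich in G and C: 75.2% in Tgfb1, 74.8% in Tgfbr1 and 69.2% in Smad3, where the median of 32851 RefSeq start regions of the same length was 52.4%. A GC box occurred 5 times in Tgfb1 and 2 times each in Tgfbr1 and Smad3, and 32.7% of all start regions held at least 1. No window held the TATA letters TATAAA on either strand, which 12.4% of all start regions do. The SMAD-binding letters CAGAC, searched on both strands, were in none of these 3 windows and once in that of Tgfbr2, and 42.2% of all start regions held them. The second entry of Tgfbr1 (chr4:47385966-47386215, plus strand), 32994 bases downstream, differed in letters, with 52.8% G and C, no GC box and 1 match to CAGAC. The palindrome GTCTAGAC was in none of these windows and in 0.167% of all. None of the motifs searched holds another whole. A match describes letters only, and a missing one says nothing of SMAD binding.

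Smad3, a SMAD that binds DNA directly after phosphorylation by the type I receptor, rose in periodontitis. It occupies bases 63646767 to 63757994 of chromosome 9 (minus strand). Health libraries 1 to 4 read 10.7, 12.3, 11.02 and 10.6 FPKM, and periodontitis libraries 2 to 4 read 18.4, 23.6 and 17.9 FPKM. The groups did not overlap, and both were even, with the highest library 1.16-fold the lowest in health and 1.32-fold in periodontitis. The mean was 1.79-fold higher in periodontitis, with 11.2 ± 0.794 FPKM (SD, n = 4) and 19.98 ± 3.13 FPKM (SD, n = 3). Its log2 change was 0.78 (SE 0.19, 95% interval 0.35 to 1.201; limma adjusted p = 0.0240). The call was lost without health 1, 2, 3 or 4 (adjusted p = 0.0570, 0.0545, 0.0679 and 0.0658). It was also lost when libraries were rescaled to a total of 1000000, with adjusted p = 0.270, or 0.256 with features under 200 bases left out. The median over all genes itself shifted by -0.44 (log2) on that rescaling, and relative to it Smad3 was at 0.85, beside 0.84 on the deposited scale.

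Smad2, the other SMAD that the type I receptor activates, did not pass (log2 value -0.56, 95% interval -1.53 to 0.41; limma adjusted p = 0.405). It occupies bases 76241580 to 76305731 of chromosome 18 (plus strand). Its FPKM in the health libraries, in order of number, was 14.5, 16.0, 13.2 and 13.6, and in the periodontitis libraries 16.3, 13.2 and 3.52. Periodontitis 2 and 3 lay at the level of health, and periodontitis 4 was far below with 177 reads, against 710 to 958 in the other libraries. That library also had reads in the fewest genes of the table, 12226, where the others had 15322 to 19721. Without periodontitis 4 the log2 value was 0.034 (adjusted p = 0.922).

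Smad4, the shared partner of the activated SMADs (chromosome 18, 73639009 to 73703780, minus strand), had 16.7, 23.7, 16.0 and 18.6 FPKM in the numbered health libraries. The periodontitis libraries had 11.7, 21.5 and 12.6 FPKM. Periodontitis 2 and 4 lay below all health libraries and periodontitis 3 within them. Smad7, the inhibitory SMAD that TGF-beta itself induces (chromosome 18, 75367529 to 75395935, plus strand), had 5.26, 10.7, 12.4 and 12.4 FPKM in the health libraries, against 10.2, 16.2 and 17.5 FPKM in the periodontitis libraries. Health 1 was the lowest library, and periodontitis 3 and 4 were above all health libraries while periodontitis 2 was not. Neither gene passed, with log2 values of -0.31 (95% interval -0.90 to 0.27; limma adjusted p = 0.445) for Smad4 and 0.51 (95% interval -0.23 to 1.25; adjusted p = 0.323) for Smad7.

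Ski and Skil encode related nuclear proteins that bind SMADs and recruit repressors to their targets. Ski (chromosome 4, 155154075 to 155222592, minus strand) had 23.7, 19.1, 22.2 and 21.6 FPKM in the health libraries, against 23.7, 31.3 and 26.5 FPKM in the periodontitis libraries. Only periodontitis 2 lay within the health range. Skil (chromosome 3, 31095058 to 31122577, plus strand) had 7.46, 7.27, 7.45 and 7.63 FPKM in the health libraries, against 3.90, 8.32 and 4.52 FPKM in the periodontitis libraries. Skil had the least spread of the 10 genes in health, with an SD of 0.148 FPKM (n = 4), while in periodontitis library 3 stood above the health libraries and libraries 2 and 4 below them. Neither gene passed. The log2 value was 0.31 for Ski (95% interval -0.12 to 0.74; limma adjusted p = 0.302) and -0.42 for Skil (95% interval -0.997 to 0.16; adjusted p = 0.301). Without periodontitis 3, Skil was at -0.70 and passed (adjusted p = 0.0481). Ski changed sign, to -0.14, when libraries were rescaled to a total of 1000000.

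**Figure D2:**
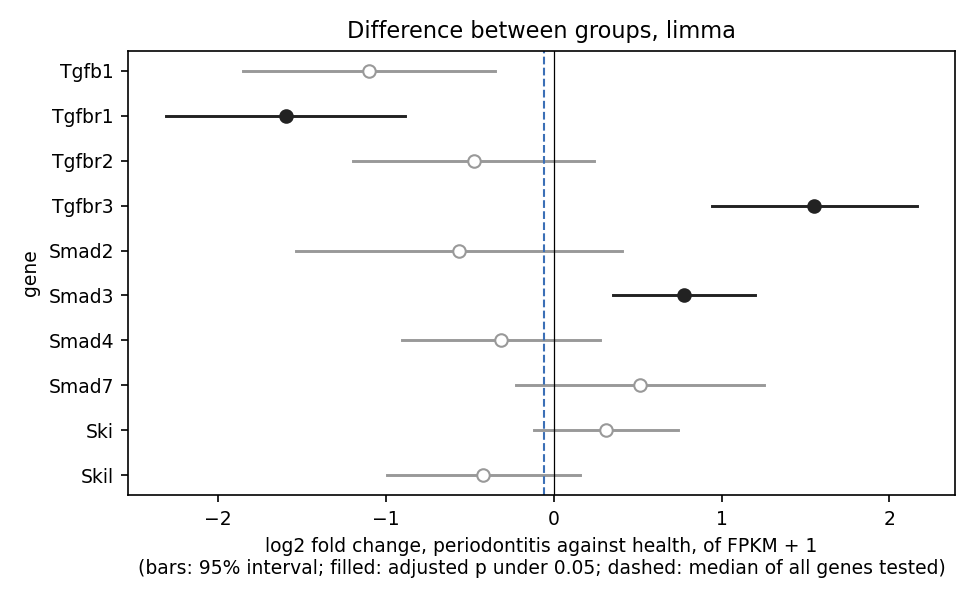
Log2 fold change of FPKM + 1 in periodontitis against health for each of the 10 genes, with 95% intervals from limma. Filled points passed at an adjusted p under 0.05, and the dashed line is the median of all genes tested, -0.06. Tgfbr3 and Smad3 lie to the right of 0 and Tgfbr1 to the left.

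FPKM is a level per length of gene, so the levels of the genes can be set in order. In health the means fell from Tgfb1 through Tgfbr2, Ski, Smad4, Tgfbr1, Smad2, Smad3, Smad7 and Skil to Tgfbr3. Between neighbours in that order the ranges over libraries did not overlap for Tgfbr2 and Ski, Smad2 and Smad3, and Skil and Tgfbr3, and they overlapped for the other 6 pairs. In periodontitis the order was Tgfb1, Tgfbr2, Ski, Smad3, Smad4, Smad7, Smad2, Tgfbr3, Skil and Tgfbr1. Neighbours' ranges did not overlap there for Ski and Smad3 and overlapped for the other 8 pairs. Tgfbr1 ranked 5 of 10 in health and 10 of 10 in periodontitis, but in health it was above the next gene, Smad2, in 1 of 4 libraries, health 1. Smad3 ranked 7 in health and 4 in periodontitis.

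Ratios of genes within a library do not depend on how the library is scaled. They were compared in FPKM by exact permutation, two-sided, in which 35 splits are possible and the smallest p is 0.0571, so that no ratio could pass 0.05. The 95% intervals of the log2 differences are from a t distribution that takes the spread of both groups as equal. The level of Tgfbr1 over that of Tgfbr2 was 0.376, 0.386, 0.344 and 0.313 in the numbered health libraries, against 0.158, 0.135 and 0.137 in the periodontitis libraries. The log2 difference of this ratio was -1.30 (95% interval -1.56 to -1.04; exact permutation p = 0.0571, 0.0714 adjusted over the 5 ratios), and it stayed between -1.38 and -1.26 without any 1 library. Less type I than type II receptor RNA was thus present in all 7 libraries, and the periodontitis libraries lay lowest.

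Tgfbr3 over Tgfbr2 was 0.0157 to 0.0585 in health and 0.130 to 0.209 in periodontitis, a log2 difference of 2.68 (95% interval 1.38 to 3.97; exact permutation p = 0.0571, adjusted 0.0714). Smad3 over Smad2 was 0.739, 0.769, 0.837 and 0.778 in the numbered health libraries, against 1.13, 1.79 and 5.09 in the periodontitis libraries. Smad2 was thus the higher of these SMAD genes in each health library and Smad3 in each periodontitis library. The log2 difference of 1.48 (95% interval 0.09 to 2.86; exact permutation p = 0.0571, adjusted 0.0714) was 0.87 without periodontitis 4, the library with little Smad2. The SD of this log2 ratio was 0.075 in health and 1.11 in periodontitis, so the spreads were not equal and the interval is uncertain.

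Ski over Skil was 2.63 to 3.18 in health and 3.76 to 6.09 in periodontitis, a log2 difference of 0.82 (95% interval 0.31 to 1.33; exact permutation p = 0.0571, adjusted 0.0714). The log2 ratio had an SD of 0.116 in health and 0.387 in periodontitis, so this interval too takes unequal spreads as equal. The groups did not overlap for this ratio although they did for each gene alone. Smad7 over Smad3, the inhibitor over an activated SMAD, was 0.491 to 1.17 in health and 0.553 to 0.978 in periodontitis. The groups overlapped, and the log2 difference was -0.27 (95% interval -1.28 to 0.75; exact permutation p = 0.514, adjusted 0.514).

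**Figure D3:**
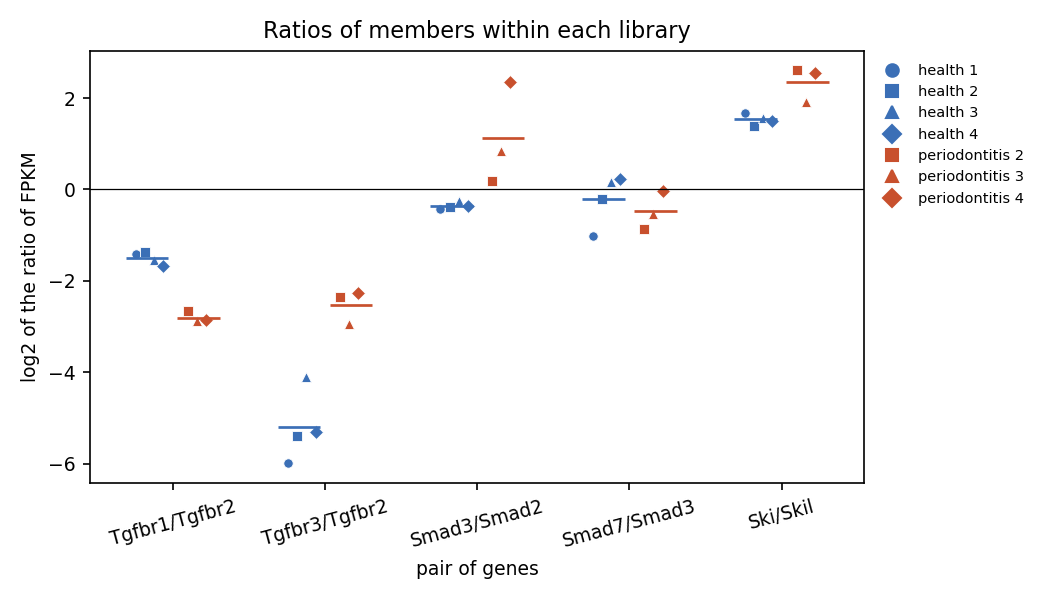
Log2 of the ratio of FPKM of 5 pairs of genes in each health (blue) and periodontitis (orange) library, with bars at the group means. The groups overlap for Smad7/Smad3 alone of the 5, and Smad3/Smad2 crosses 0 between the groups. How often ratios of other gene pairs do not overlap was not counted.

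The health libraries differed among themselves in several of the 10 genes and in cell type markers. Health 1 had the highest summed macrophage markers, 11515 FPKM against 3944 to 5679 in the other health libraries, and the lowest T cell markers, 32.9 FPKM against 81.1 to 94.1. The same library was the highest of all in Tgfb1, Tgfbr1 and Tgfbr2 and the lowest in Smad7. In Tgfbr3, Smad2, Smad3, Smad4 and Skil it lay within the range of the other health libraries. In health Tgfb1 fell in the order of the macrophage sum, from library 1 through 3 and 2 to 4. Tgfbr1 and Tgfbr2 did not, since both were higher in health 2 than in health 3. In periodontitis Tgfb1, Tgfbr1 and Tgfbr2 did not follow that sum. Periodontitis 3 had the lowest macrophage sum, 335 FPKM against 523 and 806, and the highest Tgfbr1 and Tgfbr2 of its group. Its Tgfb1, 42.9 FPKM, was above the 23.6 FPKM of periodontitis 4. Periodontitis 2 had the highest sum, with the highest Tgfb1, 54.0 FPKM, and the lowest Smad7, 10.2 FPKM, of its group. It also had the highest T cell sum, 752 FPKM, and periodontitis 4 the lowest Tgfb1. These orders were not tested. Without health 1 the log2 values were -0.94 for Tgfb1, -1.36 for Tgfbr1, -0.26 for Tgfbr2 and 0.26 for Smad7. Tgfbr1 still passed (limma adjusted p = 0.0167), as did Tgfbr3 (adjusted p = 0.0192). Markers of platelets, cells that store TGF-beta1, had no member called among 5 tested, with a summed level of 17.4 to 64.3 FPKM in health and 11.5 to 45.0 in periodontitis. None of 5 B cell markers was called (summed FPKM 192 to 494 and 260 to 494), and none of 4 NK cell markers (7.96 to 49.7 and 32.0 to 48.3). None of 4 erythroid markers was called, though their sums, 2020 to 3623 and 4723 to 14221, did not overlap. Of neutrophil markers 1 of 6 was lower (11427 to 18304 and 4092 to 17727), and of dendritic cell markers 1 of 4 tested (24.0 to 34.3 and 11.1 to 18.1). The single tested marker of endothelial or stromal cells was not called (sums over 5 markers 28.5 to 59.4 and 20.4 to 26.1).

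The CD3 genes had log2 fold changes of 2.21 to 2.81 and the macrophage markers of -4.57 to -2.84, and those of the 10 genes, -1.60 to 1.55, lay between them. Set against the mean log2 FPKM of the 4 CD3 genes in each library, all 10 genes were lower in periodontitis. This follows from the scale, since the CD3 genes rose more than any of the 10. The difference in means was -0.45 for Tgfbr3, -1.81 for Smad3, -3.76 for Tgfb1 and -4.43 for Tgfbr1. Tgfbr3 alone had groups with overlapping values on this scale, and the share of all genes without overlap on it was not counted. This is a description with no test, and it gives no level per T cell, since the libraries also hold RNA of other cell types' markers.

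**Figure D4:**
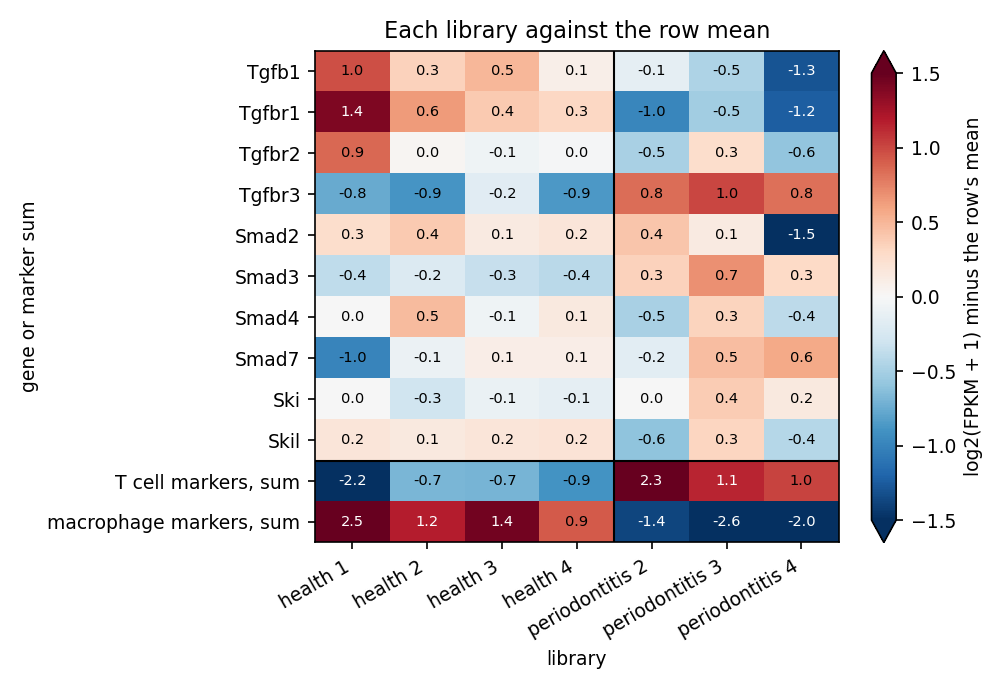
Log2(FPKM + 1) of each of the 10 genes, and of the summed T cell (CD3) and macrophage markers, in each library minus the mean of that row over the 7 libraries. Health 1 is high in Tgfb1, Tgfbr1, Tgfbr2 and the macrophage sum, and the periodontitis libraries are high in Tgfbr3, Smad3 and the T cell sum; colours saturate at 1.5.

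Among 75 other genes of the pathway, grouped by role, 51 could be tested, of which 9 were higher and 6 lower, with a median log2 fold change of -0.11, beside 5.63% higher and 10.2% lower among all genes tested. The T cell and macrophage markers given above differed between the same groups, and their part in these lists was not tested. Of 14 genes for release and activation of the ligand, 6 were tested, 2 were higher and 1 was lower (median 0.04). Furin, the protease that cleaves the TGF-beta precursor, was 10.1 to 16.7 FPKM in health and 33.4 to 62.6 in periodontitis (log2 change 1.72; limma adjusted p = 0.00391). Tgfb3, another ligand gene, was 0.0702 to 0.578 FPKM in health and 2.35 to 2.77 in periodontitis (log2 change 1.43; adjusted p = 0.0202). Nrros, which holds latent TGF-beta1 on myeloid cells, was 44.0 to 99.6 FPKM in health and 18.4 to 32.8 in periodontitis (log2 change -1.47; adjusted p = 0.0157, and 0.0503 without health 3). The 8 genes not tested, among them Tgfb2, Itgb8 and Lrrc32, never exceeded 1.11 FPKM.

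Of 9 tested partners of the receptors, 1 was higher and none lower (median -0.38). Fkbp1a, which encodes FKBP12, a protein that binds type I receptors and holds them inactive, was 15.5 to 18.4 FPKM in health and 33.0 to 67.0 in periodontitis (log2 change 1.31; limma adjusted p = 0.0121). Receptors for activins and bone morphogenetic proteins (BMPs) had 2 of 6 tested members lower and none higher (median -0.82). Acvrl1, the receptor ALK1, was 24.0 to 46.4 FPKM in health and 3.74 to 6.27 in periodontitis (log2 change -2.40; adjusted p = 0.00116). Bmpr2, a type II BMP receptor, was 1.80 to 3.49 and 0.262 to 0.718 FPKM (log2 fold change -1.18; adjusted p = 0.0423).

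Among 12 tested genes for other SMADs and nuclear partners 2 were higher and 2 lower (median -0.25). Smad1 and Smad5, which pass on BMP signals, fell with log2 fold changes of -1.28 and -1.09 (limma adjusted p = 0.0200 and 0.0302). Runx3 and Runx1, transcription factors that can act with SMADs, rose with log2 fold changes of 1.42 and 0.75 (adjusted p = 0.00854 and 0.0450). Runx3 was 6.07 to 12.8 FPKM in health and 26.9 to 30.8 in periodontitis. Several calls were lost in alternatives, and out of 16 Smad1 passed in 10, Smad5 in 7, Runx1 in 4 and Bmpr2 in 7. Runx1 was lost on rescaling to a total of 1000000 (log2 change 0.34, adjusted p = 0.332) and Bmpr2 on quantile normalization (-0.62, adjusted p = 0.271). Smad1 was lost without any 1 health library (adjusted p = 0.0513 to 0.0637), and Smad5 without health 1, 2 or 3 or periodontitis 2 or 4 (0.0631 to 0.102). Runx1 was lost without any 1 health library or periodontitis 2 or 3 (0.0697 to 0.125), and Bmpr2 without any 1 health library or periodontitis 2 (0.0661 to 0.111). In the branch that signals through the kinase TAK1, none of 4 genes was called, with log2 values of -0.22 to 0.31.

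Genes reported elsewhere to respond to TGF-beta did not share a direction. Of 11 reported to be raised by it, 7 were tested, 2 were higher and 1 was lower (median 0.28). Itgae, the integrin chain CD103, was 1.63 to 4.14 FPKM in health and 17.3 to 21.4 in periodontitis (log2 change 2.37; limma adjusted p = 0.00108). Tgfbi, an extracellular matrix protein that macrophages also make, was 82.7 to 112 and 10.99 to 41.0 FPKM (log2 fold change -2.22; adjusted p = 0.00730). Of 7 tested genes reported to be lowered by TGF-beta in T cells, 2 were higher and none lower (median 0.80). These were Gata3, the transcription factor of Th2 cells, and Ifng, which encodes interferon-gamma, with log2 fold changes of 2.20 and 2.86 (adjusted p = 0.00191 and 0.00916).

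**Figure D5:**
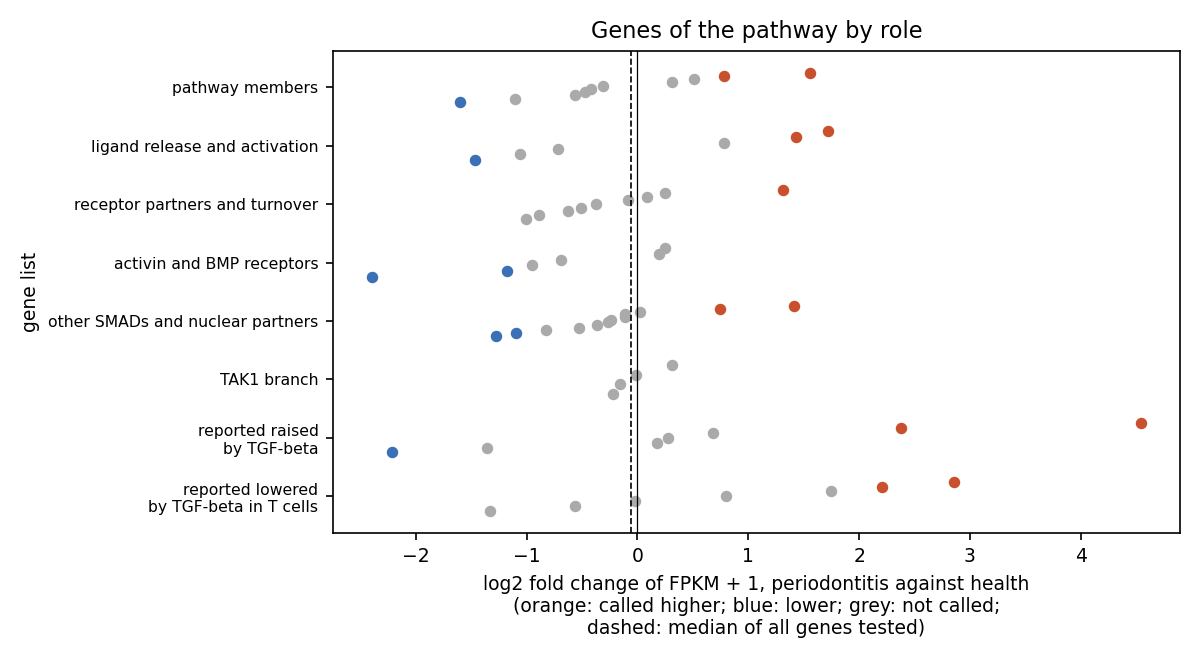
Log2 fold change of FPKM + 1 in periodontitis against health for the 10 genes and for 51 tested genes of 7 lists by role, with 1 point per gene. Orange points were called higher, blue points lower and grey points neither; the dashed line is the median of all genes tested, and no point of the TAK1 branch is coloured.

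Among 10557 other protein-coding genes with established names, those most like Tgfbr3 and Tgfbr1 over the 7 libraries were found by the root mean square difference of log2(FPKM + 1), each gene centred on its own mean. For Tgfbr3 they were Socs2, Ccdc92 and the ligand gene Tgfb3, with differences of 0.165, 0.175 and 0.177. For Tgfbr1 they were Ap2a2, Ulk2 and Fkbp9, with differences of 0.0884, 0.0960 and 0.101. Tgfb3 was at most 0.578 FPKM in health and Fkbp9 at most 0.395 FPKM in periodontitis, levels at which the added 1 FPKM hides differences. On recovered reads (limma voom) the log2 change was 3.27 for Tgfb3 and 2.20 for Tgfbr3, so their likeness depends on the scale.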

How the data were processed

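The authors deposited FPKM per gene, 1 column per library, with gene length and position. The submitters' processing notes name mm10, DESeq2, featureCounts 1.5.0-p3 and HISAT2 2.0.5, with roles, settings, strand use and annotation not given in the sources used here. Multiplied by gene length, 100% of nonzero values are whole multiples of 1 read within 0.001. A level of 1 read per kilobase was 0.0673 FPKM in periodontitis 2, with 16717942 reads, and 0.0595 in periodontitis 3, with 14991990. The deposited values were thus not scaled to the recovered reads alone, and the scaling used is not given. The health columns total 375857 to 379328 FPKM and the periodontitis columns 475268 to 568848, so rescaling to a fixed total changes fold changes. Features under 200 bases hold 1.40% to 36.7% of these totals.

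From these values, log2(FPKM + 1) was fitted in limma 3.58.1 (R 4.3.3) with a variance trend. The filter kept the 12999 genes whose mean reached 1 FPKM, and p-values were adjusted over all of them. Alternatives were a pseudocount of 0.1, no filter, rescaling, quantile normalization, voom on recovered reads, library weights, no trend, a replicate block and each library left out. Ratios were tested by exact permutation. Every pair of libraries differed beyond sampling noise (chi-square per degree of freedom at least 27.3). The members and gene lists were chosen with earlier results of these data known. The text names all members, the called genes of each list (1 of them is not reported here), and the 3 genes most like the member with the largest rise and fall; genes of marker lists, sex-linked genes and untested genes were named after their values were seen. Ccn2 is Ctgf in the table.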

Additional observations from a re-analysis of the deposited data

Results flagged for a closer look

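In the health group 2 of 30 values tested had a library far from the other 3 by Dixon's criterion, which chance alone meets in about 1 in 20 groups. Tgfbr2 was 73.1 FPKM in health 1 and 38.0 to 40.7 FPKM in the other health libraries. Tgfbr3 was 2.23 FPKM in health 3 and 0.962 to 1.15 FPKM in the others. Groups of 3 were not tested, the low Smad2 of periodontitis 4 among them.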

How the results depend on the processing

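Tgfbr1 was past the threshold in all 16 alternatives, and Tgfbr3 in all but the replicate block. Against 2 members higher and 1 lower, rescaling to a total of 1000000 gave 1 higher and 2 lower, with or without features under 200 bases. Quantile normalization and voom on recovered reads each gave 2 lower. Leaving out single libraries gave 1 to 2 higher and 1 to 2 lower. Signs turned for Smad2, which ranged from -0.93 to 0.034 without single libraries, and for Ski on rescaling (-0.14). Of the other pathway genes 6 were lower, but 3 without a filter, 14 on rescaling and 2 to 7 without single libraries. Over all genes the median shifted by -0.44 (log2) on rescaling, by -0.19 with short features left out and by 0.12 on quantile normalization. The share of calls that were higher was 35.7% as deposited, 13.3% and 26.5% on rescaling and 42.7% with quantile normalization. No ratio changed sign with 0.1 FPKM added or without single libraries, the alternatives run for ratios. By the numbers in the library names, deviations of same-numbered libraries from their group means correlated at -0.0466, -0.0164 and 0.0373. Those of other pairs correlated at -0.0969 to 0.122. With this few libraries the correlations cannot show whether same-numbered libraries shared an origin or a batch. The titles number the periodontitis libraries 1 to 3 instead, and paired so the correlations were -0.0461, 0.063 and -0.0969; the replicate block used the library names. With the replicate block 0 members were higher (Tgfbr3 adjusted p = 0.0553, Smad3 0.151) and 2 other pathway genes lower. That limma fit called 978 genes of all tested, against 2053 without the block, and 2874 had an unadjusted p under 0.05. No periodontitis library shares the number of health 1, so fold changes with the block equal those without health 1. The fit without health 1, which had no block, called 1407 genes. The causes were not tested. Tgfbr3 in health rests on 96 to 231 reads a library.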
